A study of Mus musculus with 9 samples.

Results

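The genes described here are 10 that respond to glucocorticoid hormones or to cellular stress: Fkbp5, Tsc22d3, Zbtb16, Pdk4, Hif3a, Cdkn1a, Ddit4, Nfkbia, Mt1 and Mt2. They were taken by symbol from an expression table of 27497 gene identifiers of the mouse olfactory bulb, and each symbol named exactly 1 row. All 10 had a mean of at least 1 RPKM (reads per kilobase of gene length, scaled to the size of the library) over the 9 libraries and were tested among 12780 such genes. The bulbs came from adult C57/BL6 mice of 6 to 8 weeks or older, 3 mice per group. Clean air mice were housed in carbon-filtered air, mice of the 30 min group were killed at the end of 30 min in a mixture of odorants, and mice of the 120 min group had the same 30 min of odor and then 90 min of clean air. No genetic change, drug or hormone treatment is named for any group. The labels give 1 clean air group without a time point, so effects of odor and of the time elapsed cannot be told apart. The series asks which transcripts change, and how soon, after a sensory stimulus to neurons in vivo.

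Glucocorticoids (corticosterone in the mouse) enter cells and bind the glucocorticoid receptor, a transcription factor held in the cytoplasm by Hsp90 and its helper proteins. The bound receptor moves to the nucleus and raises transcription of a set of genes that includes Fkbp5, Tsc22d3, Zbtb16, Pdk4 and, in several tissues, Ddit4, Nfkbia, Mt1 and Mt2. Many of these genes also answer to other signals: Cdkn1a to p53, Ddit4 and Hif3a to low oxygen, Nfkbia to NF-kB and the metallothionein genes to zinc. In brain they are expressed in neurons, glia and vessel cells. In a whole bulb a change in the number of cells of a type and a change of RNA per cell cannot be told apart.

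None of the 10 genes passed the test in any of the 3 comparisons (limma, adjusted p under 0.05), against 0.141% of all tested genes for 30 min minus clean air, 0.0861% for 120 min minus clean air and 0.0782% for 120 min minus 30 min. Cdkn1a came nearest, with a step from clean air to 30 min and from 30 min to 120 min in which no mouse of one group reached the next. Fkbp5 and Zbtb16 had their highest means at 120 min, Nfkbia had its highest at 30 min, and Ddit4 had its lowest at 120 min. At an unadjusted p under 0.05 there were 2 members higher at 30 min than in clean air (Cdkn1a and Nfkbia), against 3.62% of all tested genes, and 0 lower, against 2.3%. There were 3 higher (Cdkn1a, Fkbp5 and Zbtb16, against 5.72%) and 1 lower (Ddit4, against 3.85%) at 120 min than in clean air. From 30 min to 120 min 3 were higher (Cdkn1a, Fkbp5 and Zbtb16, against 1.38%) and 0 lower (against 1.99%). With the mouse number as a replicate block more genes had an unadjusted p under 0.05, 1396 in place of 756 for 30 min minus clean air, and the members were again Cdkn1a and Nfkbia.

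In sign alone, 5 of the 10 log2 differences were above 0 at 30 min, 9 at 120 min and 7 from 30 min to 120 min, beside 61.8%, 53.9% and 43.7% of all tested genes. The members' median log2 differences were 0.07, 0.19 and 0.27, beside 0.08, 0.03 and -0.03 over all tested genes.

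**Figure D1:**
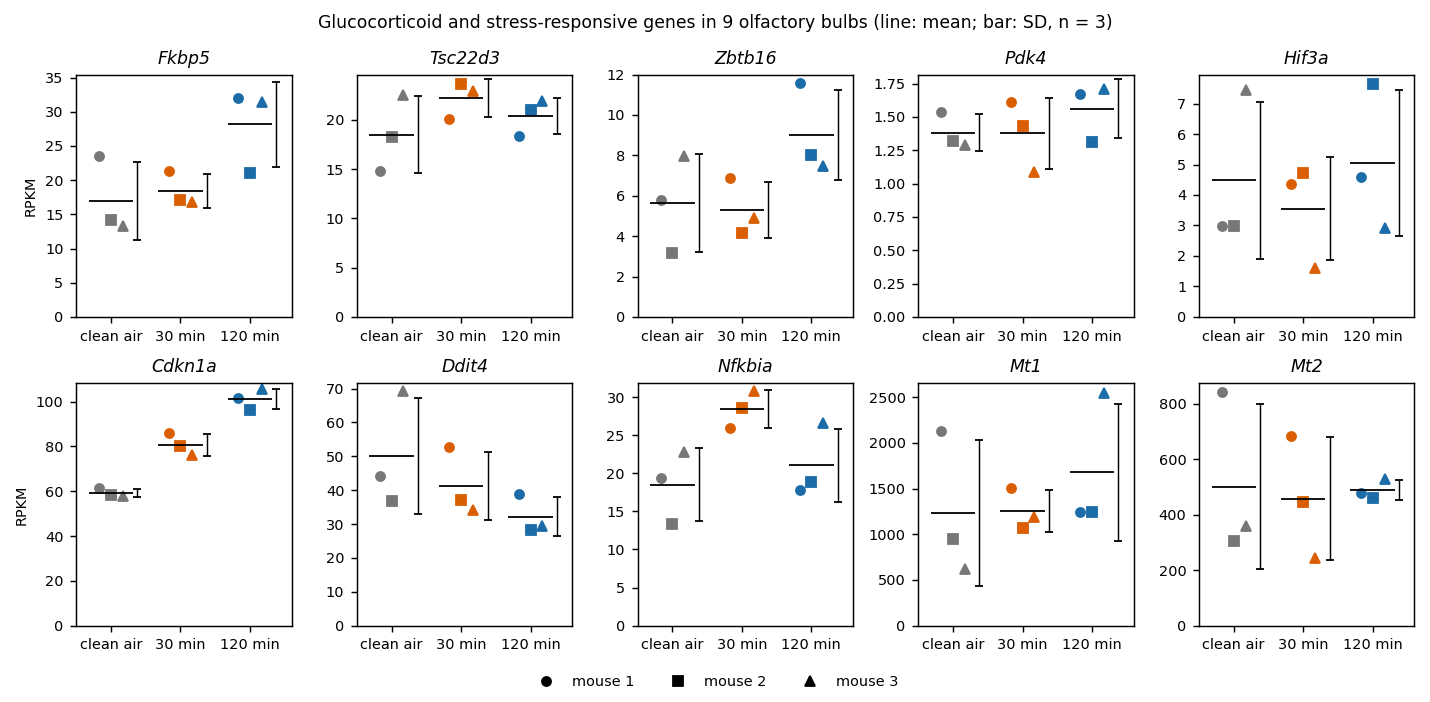
Level of the 10 genes in each mouse, in RPKM on an axis that starts at 0 and differs between panels. Points are mice, with the shape giving the mouse number, lines are group means and bars are SD over 3 mice. Cdkn1a steps up from 57.88 to 61.32 RPKM in clean air to 96.28 to 105.49 RPKM at 120 min with no overlap, while both metallothionein genes spread widely within clean air.

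The libraries differed in depth, which could be recovered from the spacing of the deposited values. It was 7.15 to 10.5 megareads (counted reads) in 4 libraries (clean air mouse 1, 30 min mouse 1, and 120 min mice 1 and 3) and 17.4 to 29.9 megareads in the other 5. The clean air and 30 min groups thus each hold 1 of the shallow libraries and the 120 min group holds 2. Fkbp5, Pdk4, Mt1 and Mt2 were higher in every shallow library than in every deep one, a pattern found in 4.07% of all tested genes. The one fit that bears on depth has log2 depth as a covariate, and its values are given beside these genes. Of 8 immediate-early reference genes, which mark neuronal activity, all 8 were called as higher at 30 min than in clean air. Olfactory bulb markers were present in every library, with summed levels of 1361 to 1769 RPKM for 5 interneuron markers and 1031 to 1441 RPKM for 7 mitral and tufted cell markers, against 6.92 to 10.4 RPKM for 5 markers of frontal cortex neurons.

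Fkbp5 (ENSMUSG00000024222) encodes a co-chaperone of Hsp90 that lowers the receptor's affinity for hormone, so that its induction closes a negative feedback loop. It had 23.57, 14.19 and 13.28 RPKM in clean air mice 1, 2 and 3, 21.30, 17.06 and 16.85 RPKM in the 30 min mice and 31.95, 21.05 and 31.44 RPKM in the 120 min mice. Clean air mouse 1 lay above the lowest 120 min mouse, so these groups overlapped, and the 30 min group overlapped both. Group means were 17.01 ± 5.70, 18.4 ± 2.51 and 28.1 ± 6.15 RPKM (SD, n = 3 each). The log2 difference of 120 min minus clean air was 0.73 ± 0.24 (SE), a 1.66-fold higher level with a 95% interval of 0.20 to 1.27 on the log2 scale, and it did not pass (limma adjusted p = 0.376, unadjusted p = 0.0121). That of 30 min minus clean air was 0.15 ± 0.24 (adjusted p = 0.918), and that of 120 min minus 30 min was 0.58 ± 0.24 (adjusted p = 0.999, unadjusted p = 0.0357).

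Depth moved with Fkbp5: its 4 shallow libraries had 21.30 to 31.95 RPKM and its 5 deep ones 13.28 to 21.05 RPKM. Among shallow libraries the 120 min mice 1 and 3 (31.95 and 31.44 RPKM) were above clean air mouse 1 (23.57 RPKM). Among deep ones 120 min mouse 2 (21.05 RPKM) was above clean air mice 2 and 3 (14.19 and 13.28 RPKM). With log2 depth as a covariate, added after the data were seen, the difference of 120 min minus clean air was 0.49 on the log2 scale (adjusted p = 0.464). Each depth class holds too few mice of a group for a test of its own.

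**Figure D2:**
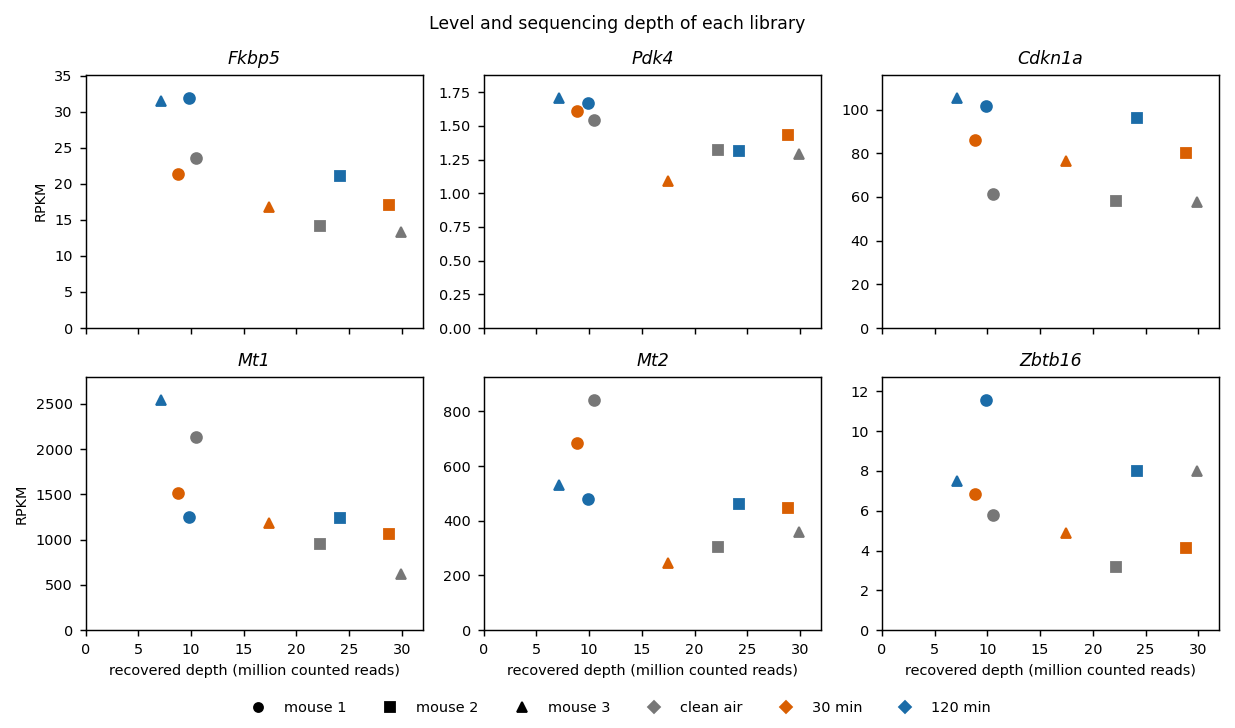
Level in RPKM of 6 of the genes against the recovered depth of each library, in megareads, with color for the group and shape for the mouse number. The 4 libraries of at most 10.5 megareads hold the 4 highest values of Fkbp5, Pdk4, Mt1 and Mt2, while the Cdkn1a values of the 3 groups do not overlap.

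Zbtb16 (ENSMUSG00000066687) encodes PLZF, a zinc finger transcription factor that is strongly induced by the receptor in many tissues. Its levels were 5.80, 3.16 and 7.98 RPKM in the clean air mice, 6.86, 4.13 and 4.90 RPKM in the 30 min mice and 11.58, 8.02 and 7.47 RPKM in the 120 min mice. All 120 min mice were above all 30 min mice, but clean air mouse 3 lay above 120 min mouse 3. The log2 difference of 120 min minus 30 min was 0.72 ± 0.31 (SE; limma adjusted p = 0.999, unadjusted p = 0.0420) and that of 120 min minus clean air 0.69 ± 0.31 (adjusted p = 0.519, unadjusted p = 0.0494). Without clean air mouse 3 the latter was larger and without clean air mouse 2 smaller, over a range of 0.36 to 0.96 when each mouse was left out in turn, and no left-out mouse made it pass. The difference of 30 min minus clean air was -0.03 ± 0.31.

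Tsc22d3 (ENSMUSG00000031431), whose product GILZ blocks inflammatory transcription factors and is a standard readout of receptor activity, did not share this pattern. It had 14.76, 18.28 and 22.48 RPKM in the clean air mice, 20.05, 23.67 and 22.92 RPKM in the 30 min mice and 18.40, 20.95 and 21.93 RPKM in the 120 min mice. The range of the clean air mice reached into both other groups, and means were 18.5 ± 3.87, 22.2 ± 1.91 and 20.4 ± 1.82 RPKM (SD, n = 3). Its log2 differences were 0.27 ± 0.18 at 30 min (adjusted p = 0.841) and 0.16 ± 0.18 at 120 min (adjusted p = 0.836), with 95% intervals of -0.12 to 0.67 and -0.24 to 0.55. An increase of 1 on the log2 scale lies outside both intervals. Clean air mouse 1 was the lowest of all, and without it the differences were 0.13 and 0.01, while without clean air mouse 3 they were 0.42 and 0.30.

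Pdk4 (ENSMUSG00000019577), a kinase that shuts off pyruvate dehydrogenase and spares glucose in fasting, was the least abundant member, with 1.09 to 1.71 RPKM over all mice. Its values were 1.54, 1.32 and 1.29 RPKM in the clean air mice, 1.61, 1.43 and 1.09 RPKM in the 30 min mice and 1.67, 1.31 and 1.71 RPKM in the 120 min mice. It had the fewest reads of the members, an estimated 43 to 143 per library. Its log2 differences of -0.01 ± 0.24 and 0.13 ± 0.24 from clean air were smaller than their errors, and in each group the shallowest library was the highest. With log2 depth as a covariate these differences were -0.04 and 0.04.

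Hif3a (ENSMUSG00000004328) encodes a member of the hypoxia-inducible factor family with forms that restrain the others, and it is induced by glucocorticoids in several tissues. It varied more over mice than any other member, with the highest value 4.78 times the lowest. Clean air mice had 2.99, 2.98 and 7.46 RPKM, 30 min mice 4.35, 4.71 and 1.60 RPKM, and 120 min mice 4.59, 7.65 and 2.92 RPKM. Clean air mouse 3 and 30 min mouse 3 each stood apart from their groups, the former high and the latter the lowest of all, and the groups overlapped throughout. The log2 differences of -0.29 ± 0.45 at 30 min and 0.18 ± 0.45 at 120 min carried the largest errors of the 10 genes.

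Cdkn1a (ENSMUSG00000023067) encodes p21, which stops the cell cycle by inhibiting cyclin-dependent kinases and is the classical target of p53, and which glucocorticoids also raise. Clean air mice had 61.32, 58.36 and 57.88 RPKM, 30 min mice 85.97, 79.97 and 76.36 RPKM, and 120 min mice 101.60, 96.28 and 105.49 RPKM. The 3 groups did not overlap in any of the 3 comparisons, and means were 59.2 ± 1.86, 80.8 ± 4.85 and 101 ± 4.62 RPKM (SD, n = 3). Non-overlap with the later group higher was found in 7.29%, 7.86% and 4.99% of all tested genes for 30 min against clean air, for 120 min against clean air and for 120 min against 30 min, and in 2 (Cdkn1a and Nfkbia), 1 (Cdkn1a) and 2 (Cdkn1a and Zbtb16) of the 10 members. Non-overlap in the other direction was found in 0 members in each case, against 4.08%, 5.27% and 5.66% of all tested genes.

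By the fit Cdkn1a was 1.36-fold higher at 30 min than in clean air (log2 0.44 ± 0.13 SE, limma adjusted p = 0.731, unadjusted p = 0.00644). It was 1.70-fold higher at 120 min (log2 0.77 ± 0.13, 95% interval 0.48 to 1.06, adjusted p = 0.135, unadjusted p = 0.000127). From 30 min to 120 min the difference was 0.32 ± 0.13 (adjusted p = 0.999, unadjusted p = 0.0325). The 120 min difference had the 12th smallest p of 12780 genes, next after the 11 that were called. It stayed between 0.72 and 0.80 over 19 other settings of the fit, with an adjusted p of 0.0790 to 0.578, and the lowest came from a fit in which the mouse number was a replicate block. Within each group the shallowest library had the highest Cdkn1a level, and with log2 depth as a covariate the 120 min difference was 0.72 (adjusted p = 0.225). A moderated F test over the 3 groups placed Cdkn1a 26th (adjusted p = 0.223), where 0.164% of all genes passed. In the later annotation GENCODE M21 its exons share bases with AC167363.2 on the opposite strand, and since the sources used here do not say whether counting used strand, reads of both genes cannot be told apart.

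A Cdkn1a promoter is shown because p53 is the best known regulator of this gene. In the RefSeq promoter at chr17:29090729-29091028 of GRCm38.p6 (plus strand, 250 bases before the start and 50 after), the first of 2 entries for this gene, capitals mark matches to the p53 half-site, a 10-base motif searched by name on both strands.
Cdkn1a promoter: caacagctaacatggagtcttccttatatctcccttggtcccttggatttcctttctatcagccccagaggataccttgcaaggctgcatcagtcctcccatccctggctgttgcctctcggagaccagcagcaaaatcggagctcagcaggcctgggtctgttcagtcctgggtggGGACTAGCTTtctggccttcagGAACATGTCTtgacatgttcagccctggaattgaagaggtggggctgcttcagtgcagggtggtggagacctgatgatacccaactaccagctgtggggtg
The matches lie at positions -73 to -64 and -51 to -42, with the start base counted as 0. The other entry, at chr17:29093519-29093818, holds 0 matches, and GENCODE M21 has transcripts that start at both. At least 1 such match was found in 8.36% of 32851 mouse promoters of this length and at least 2 in 0.359%. A match is a likeness of letters, and binding was not measured.

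Of 15 tested other p53 targets, 10 were above clean air at 30 min and 9 at 120 min in sign, beside 61.8% and 53.9% of all tested genes. The targets' medians were 0.10 at both times, beside 0.08 and 0.03 over all tested genes. At an unadjusted p under 0.05 there were 2 higher (Btg2 and Plk2) and 0 lower at 30 min, against 3.62% and 2.3% of all tested genes. At 120 min there were 0 higher and 2 lower (Bbc3 and Gadd45a), against 5.72% and 3.85%. The 1 called gene was Btg2, an antiproliferative factor that is also an immediate-early gene. Btg2 had 5.47, 4.86 and 6.06 RPKM in the clean air mice, 40.95, 33.22 and 42.44 RPKM in the 30 min mice and 5.72, 6.47 and 5.33 RPKM in the 120 min mice. It rose by 2.72 ± 0.17 on the log2 scale at 30 min (limma adjusted p = 6.69e-05) and its log2 difference at 120 min was 0.09 ± 0.17, whereas Cdkn1a had its highest mean then. Bax and Ei24, the most abundant of these targets, had log2 differences of -0.40 ± 0.28 and 0.14 ± 0.23 at 120 min. Plk2, Bbc3 and Gadd45a were chosen after their values were seen. Bbc3, which promotes cell death, and Gadd45a, a DNA damage gene, had log2 differences of -1.08 ± 0.28 and -0.61 ± 0.20 at 120 min (limma adjusted p = 0.339 and 0.366), opposite in sign to Cdkn1a. These were the 2 of the 15 targets with all 120 min mice below all clean air mice, against 5.27% of all tested genes. In 1 other of the 15 all 120 min mice were above all clean air mice, as for Cdkn1a, against 7.86%. Plk2, a kinase gene that neuronal activity also induces, had 0.94 ± 0.20 at 30 min (adjusted p = 0.312).

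Nfkbia (ENSMUSG00000021025) encodes IkB-alpha, which holds NF-kB in the cytoplasm and is itself switched on by NF-kB, by glucocorticoids and by neuronal activity. Its levels were 19.39, 13.41 and 22.79 RPKM in the clean air mice, 25.92, 28.61 and 30.87 RPKM in the 30 min mice and 17.79, 18.84 and 26.59 RPKM in the 120 min mice. All 30 min mice were above all clean air mice, and 120 min mouse 3 reached into the 30 min range. Means were 18.5 ± 4.75, 28.5 ± 2.48 and 21.1 ± 4.81 RPKM (SD, n = 3). At 30 min it was 1.55-fold higher than in clean air (log2 0.63 ± 0.22 SE, limma adjusted p = 0.790, unadjusted p = 0.0150), and from 30 min to 120 min the log2 difference was -0.44 ± 0.22 (adjusted p = 0.999, unadjusted p = 0.0687). Summed red blood cell markers, of which Hba-a1 is listed at 0, were also above clean air in all 30 min mice, at 175 to 210 RPKM against 42.9 to 162 RPKM. This sum rests mostly on 1 of 2 Hbb-b1 rows (mean of 130 RPKM over the 9 libraries, against 12.5 in the other). That row was the 1 of 3 tested whose groups did not overlap, against 7.29% of all tested genes. Summed microglia markers overlapped (109 to 120 against 66.6 to 122 RPKM). The part of either marker set in the Nfkbia difference was not tested.

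The Nfkbia promoter is shown because it carries the kind of site that gives the gene its feedback by NF-kB. It is the RefSeq sequence at chr12:55492598-55492897 of GRCm38.p6 (minus strand, read 5′ to 3′), and capitals mark the match to the NF-kB site, a 10-base motif searched by name on both strands.
Nfkbia promoter: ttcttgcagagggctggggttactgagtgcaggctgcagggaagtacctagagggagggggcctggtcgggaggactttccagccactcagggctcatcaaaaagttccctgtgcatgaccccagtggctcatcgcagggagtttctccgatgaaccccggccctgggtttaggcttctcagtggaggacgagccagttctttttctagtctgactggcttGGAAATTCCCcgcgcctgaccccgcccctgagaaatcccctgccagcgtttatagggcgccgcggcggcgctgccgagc
The match lies at positions -29 to -20. Such a match was found in 8.46% of all promoters of this length and, among the members, also in 1 of the Tsc22d3 promoters. Of 12 tested other genes of the NF-kB pathway and its targets 7 were above clean air at each time in sign, beside 61.8% and 53.9% of all tested genes. At an unadjusted p under 0.05 all tested genes gave 3.62% higher and 2.3% lower at 30 min and 5.72% and 3.85% at 120 min. None of the 12 was called, and 0 had an unadjusted p under 0.05 in either direction at either time. The most abundant, Sod2, a mitochondrial superoxide dismutase, and Nfkbib, a relative of Nfkbia, had log2 differences of 0.07 ± 0.16 and -0.22 ± 0.21 at 30 min.

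Ddit4 (ENSMUSG00000020108) encodes REDD1, which restrains growth signalling through mTOR under stress. It was the 1 member whose mean was lower at each later time. Clean air mice had 44.11, 36.85 and 69.42 RPKM, 30 min mice 52.78, 37.19 and 34.07 RPKM, and 120 min mice 38.77, 28.19 and 29.57 RPKM. The groups overlapped, since 120 min mouse 1 was above clean air mouse 2, and clean air mouse 3 was well above all other mice. Means were 50.1 ± 17.1, 41.3 ± 10.02 and 32.2 ± 5.75 RPKM (SD, n = 3). The log2 difference of 120 min minus clean air was -0.59 ± 0.25 (limma adjusted p = 0.494, unadjusted p = 0.0388), and it was -0.34 when clean air mouse 3 was left out. That of 30 min minus clean air was -0.25 ± 0.25 and turned to 0.01 without the same mouse. Depth did not separate the Ddit4 values, with 29.57 to 52.78 RPKM in shallow and 28.19 to 69.42 RPKM in deep libraries.

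Lists of low-oxygen and growth-signalling genes were set beside Ddit4 and Hif3a. Beside their counts, all tested genes gave 3.62% higher and 2.3% lower than clean air at 30 min at an unadjusted p under 0.05. At 120 min these shares were 5.72% and 3.85%. Medians over all tested genes were 0.08 and 0.03. Of 17 tested hypoxia-responsive genes and regulators 0 were called at either time by limma, with 0 at an unadjusted p under 0.05 at 30 min and 1 higher and 1 lower at 120 min. Beside 53.9% of all tested genes, in sign 10 of the 17 were above clean air at 120 min, with a median of 0.10. Slc2a1, the glucose transporter of the blood-brain barrier and the most abundant of them, had 69.54, 57.21 and 90.13 RPKM in the clean air mice and 102.74, 103.91 and 135.23 RPKM in the 120 min mice (log2 0.67 ± 0.20, limma adjusted p = 0.348). It was the 1 of the 17 with all 120 min mice above all clean air mice, against 7.86% of all tested genes. In 1 other of the 17 all 120 min mice were below all clean air mice, against 5.27%. The Ddit4 difference was below 0, with groups that overlapped. Epas1, a hypoxia-inducible factor of vessel cells, had a log2 difference of 0.40 ± 0.19 there (adjusted p = 0.551). Of 17 tested mTOR inhibitors and fasting genes 0 were called, with 1 and 4 higher at an unadjusted p under 0.05 at 30 and 120 min, and medians of 0.06 and 0.16. Igfbp2, a binding protein of insulin-like growth factors, and Pdk2, a relative of Pdk4, were the most abundant of them, with log2 differences of -0.31 ± 0.17 and 0.37 ± 0.14 at 120 min (adjusted p = 0.598 and 0.450). Of 12 tested genes of the integrated stress response 0 were called, with 1 higher at each time and 1 lower at 120 min at an unadjusted p under 0.05, and Hspa5 and Ddit3 had log2 differences of 0.18 ± 0.16 and -0.36 ± 0.24 at 120 min.

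Mt1 (ENSMUSG00000031765) and Mt2 (ENSMUSG00000031762) encode small cysteine-rich proteins that bind zinc and copper, made in brain mainly by astrocytes. They were the most abundant members: by level per gene length the mean of Mt1 over the 9 libraries stood at the 99.9th percentile of the tested genes and that of Mt2 at the 99.6th. Mt1 had 2134.23, 953.09 and 617.85 RPKM in the clean air mice, 1510.98, 1066.90 and 1184.42 RPKM in the 30 min mice and 1248.91, 1241.32 and 2547.91 RPKM in the 120 min mice. Mt2 had 842.79, 304.37 and 358.65 RPKM in the clean air mice, 685.82, 445.16 and 245.35 RPKM in the 30 min mice and 480.29, 459.48 and 529.79 RPKM in the 120 min mice. Clean air mouse 1 was the highest of all mice for Mt2, and for Mt1 was exceeded by 120 min mouse 3 alone. The clean air range held every value of the other groups except Mt1 in 120 min mouse 3 and Mt2 in 30 min mouse 3.

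The log2 differences from clean air were 0.20 ± 0.42 (30 min) and 0.55 ± 0.42 (120 min) for Mt1 and -0.10 ± 0.41 and 0.12 ± 0.41 for Mt2 (limma adjusted p from 0.735 to 0.967). The 95% interval of the Mt1 difference at 120 min ran from -0.39 to 1.49, so it holds both 0 and an increase of 1 on the log2 scale. The Mt1 difference at 120 min was 1.04 without clean air mouse 1, 0.15 without clean air mouse 3 and 0.21 without 120 min mouse 3. Levels of both moved with depth: the shallow libraries had 1249 to 2548 RPKM of Mt1 against 618 to 1241 RPKM in the deep ones, and 480 to 843 against 245 to 459 RPKM of Mt2. With log2 depth as a covariate the 120 min differences were 0.14 and -0.18. Summed astrocyte markers were 1078 to 1628 RPKM in clean air, 1418 to 1635 at 30 min and 1330 to 1793 at 120 min, and their part in these levels was not tested.

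Mt1 exceeded Mt2 in every mouse, by 2.53, 3.13 and 1.72 times in clean air, 2.20, 2.40 and 4.83 times at 30 min and 2.6, 2.70 and 4.81 times at 120 min. The 30 min mouse 3 and 120 min mouse 3 stood apart at about the same ratio, the former through its low Mt2 and the latter through its high Mt1. Annotated transcripts of Mt1 and Mt2 share no run longer than 20 bases, and the longest run shared with the brain metallothionein Mt3 is 27 bases, in Mt1. The sources used here do not say how reads with several matches were counted. Mt2 also shares exon bases with Gm45774 on the opposite strand.

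Both promoters are shown because metal response elements near the start are the known route by which zinc, through the factor Mtf1, drives these genes. They are the RefSeq sequences at chr8:94178839-94179138 (Mt1) and chr8:94172368-94172667 (Mt2) of GRCm38.p6, both on the plus strand. Capitals mark matches on either strand to the searched pattern TGCNCNC, in which N is any base. It is a loose likeness of a metal response element, and binding was not measured.
Mt1 promoter: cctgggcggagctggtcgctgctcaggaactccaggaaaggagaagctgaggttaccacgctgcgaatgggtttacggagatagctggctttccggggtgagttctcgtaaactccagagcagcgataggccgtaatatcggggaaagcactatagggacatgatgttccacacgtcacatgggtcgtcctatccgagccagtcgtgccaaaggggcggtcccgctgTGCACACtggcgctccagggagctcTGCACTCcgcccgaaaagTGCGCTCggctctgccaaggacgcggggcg
Mt2 promoter: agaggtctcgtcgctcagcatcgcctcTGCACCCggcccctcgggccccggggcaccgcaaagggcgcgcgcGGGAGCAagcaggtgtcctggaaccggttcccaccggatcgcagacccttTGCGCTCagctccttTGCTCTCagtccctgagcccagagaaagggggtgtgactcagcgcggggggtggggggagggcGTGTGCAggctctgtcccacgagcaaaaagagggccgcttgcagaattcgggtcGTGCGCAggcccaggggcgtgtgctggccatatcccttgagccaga
The Mt1 window holds this pattern at 3 places between positions -23 and 26, 2 of which lie after the RefSeq start. The Mt2 window holds it at 6 places between positions -223 and 10. Positions are counted from the RefSeq starts. The nearest transcript start of GENCODE M21 lies at position -7 for Mt1 and 46 bases downstream for Mt2. Which starts are used in the bulb was not measured, so whether a place lies upstream of the main start is not known, and elements outside these windows are not covered. At least 3 places were found in 7.1% of 32851 promoters and at least 6 in 0.225%, while at least 1 was found in 51.03%, beside 8 of the 12 promoters of the members.

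Of 11 tested genes of metal handling and metallothionein relatives 11 were above clean air at 30 min and 9 at 120 min in sign. Of all tested genes 61.8% and 53.9% were above it. The medians of the list were 0.18 and 0.24, beside 0.08 and 0.03 over all tested genes. By limma 0 were called, and 1 and 2 were higher at an unadjusted p under 0.05, against 3.62% and 5.72% of all tested genes. The list was chosen with earlier results of these data known. Mt3, the abundant metallothionein of brain, had 821.12, 541.08 and 612.25 RPKM in the clean air mice, 966.44, 566.21 and 679.44 RPKM in the 30 min mice and 923.34, 430.58 and 1178.30 RPKM in the 120 min mice. Its shallow libraries were likewise all above its deep ones, and its log2 differences from clean air were 0.15 ± 0.35 and 0.26 ± 0.35. Srxn1, an antioxidant enzyme gene, had 0.54 ± 0.22 at 120 min (limma adjusted p = 0.483).

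The palindromic glucocorticoid response element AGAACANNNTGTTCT, which contains the half-site TGTTCT on each strand, was searched on both strands in the promoters of all members but Zbtb16, which has no entry in the table. It was in none of the 12 promoters of these 9 genes and in 3 of all 32851 (0.01%). The half-site was in 1 Tsc22d3 promoter, against 18.97% of all promoters. The hypoxia core ACGTG was in the promoters of Ddit4, Fkbp5 and Mt1 (19.62% of all promoters). The cAMP response element TGACGTCA was in none (1.79%). These windows reach only 250 bases upstream, and letters missing here say nothing on sites elsewhere.

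**Figure D3:**
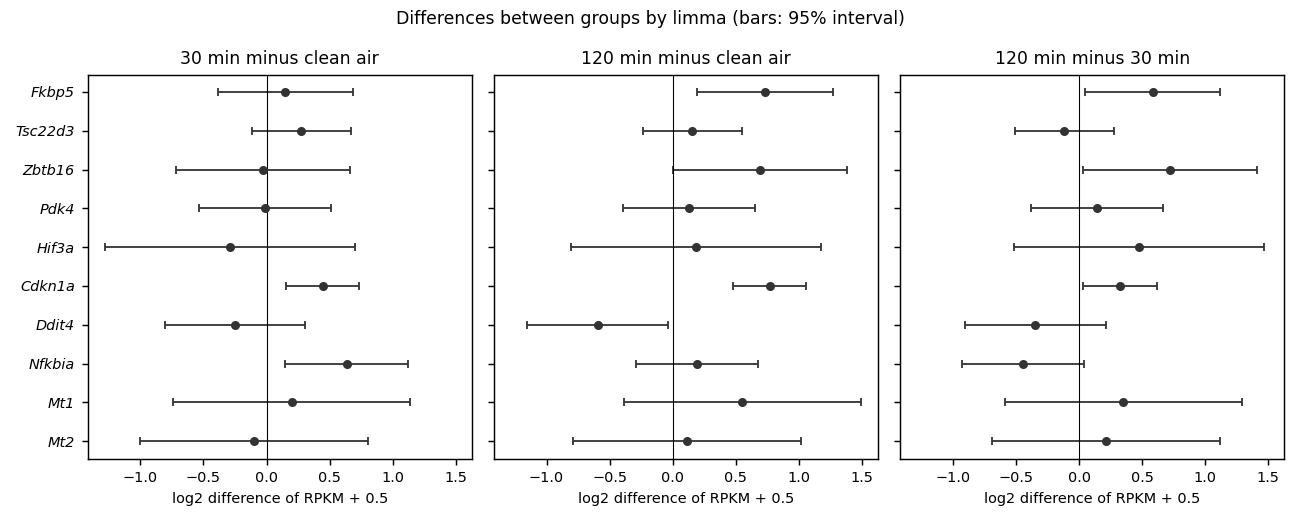
Differences between groups for the 10 genes, as log2 of RPKM + 0.5 from the fit, with 95% intervals. Intervals of Cdkn1a lie above 0 in all 3 panels, at 0.48 to 1.06 for 120 min minus clean air, and those of Mt1, Mt2 and Hif3a are the widest.

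The receptors themselves were measured beside their targets. Nr3c1, the glucocorticoid receptor gene, had 3.13, 2.85 and 3.98 RPKM in the clean air mice, 5.02, 5.31 and 5.96 RPKM in the 30 min mice and 6.81, 5.14 and 4.60 RPKM in the 120 min mice. Every odor-exposed mouse was above every clean air mouse, with log2 differences of 0.64 ± 0.21 at 30 min (limma adjusted p = 0.749, unadjusted p = 0.00982) and 0.65 ± 0.21 at 120 min (adjusted p = 0.361, unadjusted p = 0.00924), which did not pass. Nr3c2, the mineralocorticoid receptor gene, which binds the same hormone at lower concentrations, had 7.74, 6.32 and 5.0 RPKM in the clean air mice, 8.74, 12.16 and 9.14 RPKM in the 30 min mice and 9.29, 9.19 and 7.90 RPKM in the 120 min mice. Its odor-exposed mice were likewise all above its clean air mice, narrowly at 120 min (7.90 against 7.74 RPKM), while the 30 min and 120 min groups overlapped. The log2 differences of Nr3c2 from clean air were 0.62 ± 0.20 and 0.46 ± 0.20 (limma adjusted p = 0.749 and 0.505). Both comparisons use the same clean air mice.

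In the list of receptors and hormone handling 14 of 16 genes were tested, and 5 had odor-exposed mice all above clean air mice at 30 min and 5 at 120 min, against 7.29% and 7.86% of all tested genes, with 0 called. The coactivator genes Ncoa1 and Ncoa2 were among them at both times, with log2 differences of 0.51 ± 0.17 and 0.54 ± 0.23 at 30 min and 0.52 ± 0.17 and 0.67 ± 0.23 at 120 min. Clean air mouse 2 held the lowest Nr3c1, Ncoa1 and Ncoa2 values, and without it the Ncoa2 differences were 0.23 and 0.37. Hsd11b1, the enzyme that regenerates active hormone inside cells, had 1.67, 1.76 and 2.32 RPKM at 30 min and 0.65, 0.80 and 1.42 RPKM at 120 min (log2 -0.76 ± 0.32, adjusted p = 0.999). Fkbp4, the co-chaperone that opposes Fkbp5, had log2 differences of 0.02 and -0.01. Of 21 tested partners and relatives of the members 0 were called, with medians of 0.15 and 0.09, beside 0.08 and 0.03 over all tested genes. At an unadjusted p under 0.05 there were 0 higher and 1 lower at 30 min, against 3.62% and 2.3% of all tested genes. At 120 min 3 of these partners and relatives were higher and 1 lower, against 5.72% and 3.85%. The most abundant beside Mt3 was Fkbp8, a relative of Fkbp5, with -0.19 ± 0.18 and -0.22 ± 0.18.

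Among 25 other genes known to be induced by glucocorticoids, all tested, 20 were above clean air at 30 min and 21 at 120 min in sign, beside 61.8% and 53.9% of all tested genes, and their medians were 0.27 and 0.38. The list was chosen with earlier results of these data known, so its direction is no independent evidence. Dusp1, a phosphatase that shuts off MAP kinases and that neuronal activity also induces, was the 1 called gene. It had 12.69, 11.80 and 18.10 RPKM in the clean air mice, 65.18, 53.08 and 51.49 RPKM in the 30 min mice and 17.62, 18.33 and 16.98 RPKM in the 120 min mice. It rose by 1.97 ± 0.18 on the log2 scale at 30 min (limma adjusted p = 0.000620) and fell by 1.65 from 30 min to 120 min (adjusted p = 0.00524). At 30 min 6 of the 25 genes had groups that did not overlap with the 30 min group higher, namely Dusp1, Sgk1, Per1, Lcn2, Bcl6 and Azin1, against 7.29% of all tested genes.

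At 120 min none of the 25 was called, and 7 had an unadjusted p under 0.05 with the 120 min group higher, against 5.72% of all tested genes. By non-overlapping groups 7 were higher as well, Klf9, Bcl6, Irs2, Mertk, Ccnd2, Tle3 and Usp54, against 7.86% of all tested genes. Tle3, a corepressor gene, had 19.90, 24.79 and 27.99 RPKM in the clean air mice, 25.27, 23.86 and 24.40 RPKM in the 30 min mice and 35.59, 38.16 and 40.02 RPKM in the 120 min mice (log2 0.65 ± 0.16, limma adjusted p = 0.339, unadjusted p = 0.00175). Irs2, which relays insulin signals, had 11.81, 7.59 and 17.68 RPKM in the clean air mice and 20.40, 21.32 and 25.36 RPKM in the 120 min mice (log2 0.90 ± 0.26, adjusted p = 0.342). Sgk1 and Per1, a kinase gene and a clock gene that respond to hormone within the hour, had log2 differences of 0.73 ± 0.25 and 0.78 ± 0.23 at 30 min and 0.45 and 0.50 at 120 min. Map3k6 had 1.31, 1.91 and 2.77 RPKM in the clean air mice, 1.69, 1.20 and 1.20 RPKM at 30 min and 2.66, 3.59 and 3.25 RPKM at 120 min. Its log2 difference of 120 min minus 30 min was 0.98 ± 0.27 (limma adjusted p = 0.999). Clean air mouse 3 lay above 120 min mouse 1. Fkbp5 and Zbtb16 had their highest means at 120 min and Nfkbia at 30 min, while the intervals of Tsc22d3 include 0 at both times. The genes named here are only a part of the 25, so no timing shared with the members is read from them.

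**Figure D4:**
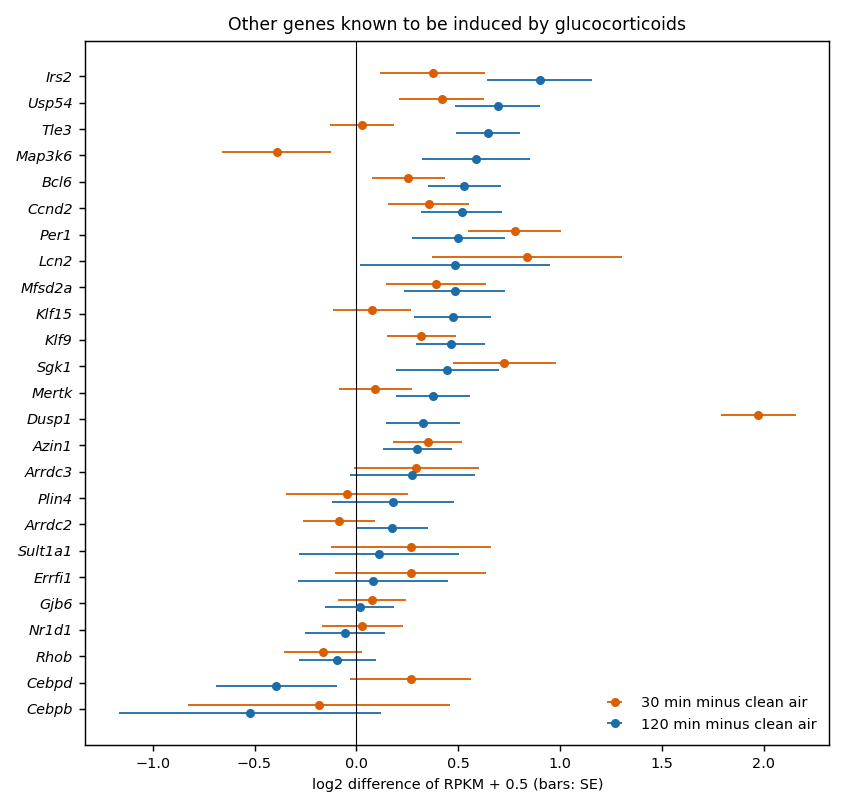
Log2 differences from clean air of 25 other glucocorticoid-induced genes at 30 min and 120 min, from the fit of log2(RPKM + 0.5), with bars of SE. Genes are ordered by the 120 min value, and Dusp1 at 30 min (1.97) is the 1 called point.

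Over the 9 mice the 10 members varied together only in part. Of 45 pairs 31 had a positive Pearson r, the median was 0.14, and 0 pairs passed after adjustment over the 45 by an exact permutation test of r or of Spearman's rho (4 had an unadjusted p under 0.05 for r). The closest pair was Fkbp5 and Mt1, with r = 0.783 (adjusted exact permutation p = 0.204) and rho = 0.883 (adjusted p = 0.124), r = 0.81 between deviations from group means and r = 0.944 without the 2 mice farthest from the Fkbp5 median. Mt2 with Pdk4 (0.778), Fkbp5 with Pdk4 (0.775) and Fkbp5 with Cdkn1a (0.769) followed, and Mt1 with Mt2 had r = 0.643. Fkbp5, Mt1, Mt2 and Pdk4 are the 4 members whose shallow libraries lay above all deep ones, and neither depth class holds the 6 mice needed for an r of its own. All libraries also share their scaling, so these values are descriptions.

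**Figure D5:**
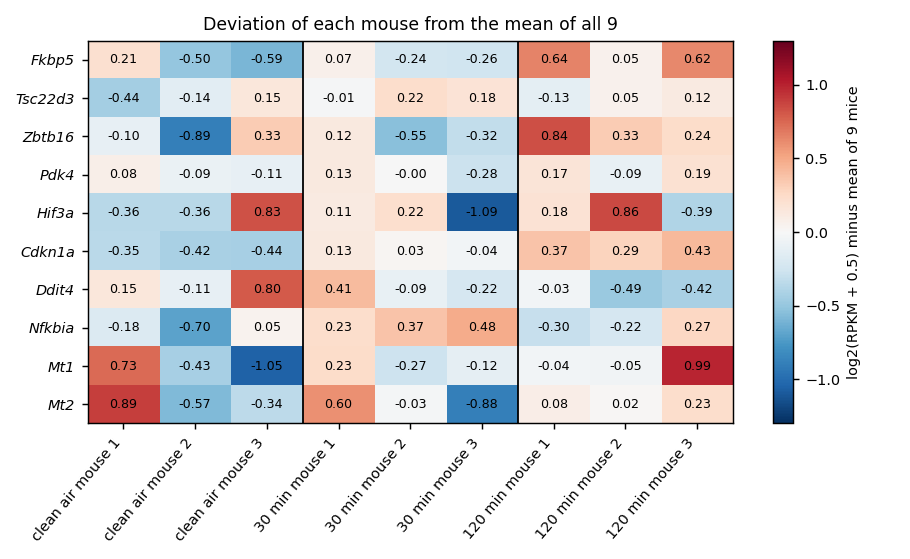
Deviation of each mouse from the mean of all 9 for each gene, on the scale of log2(RPKM + 0.5), with red above and blue below the mean and lines between groups. Fkbp5, Mt1 and Mt2 are above their means in clean air mouse 1 and below in clean air mice 2 and 3, while Cdkn1a is below in all 3 and above in all 120 min mice.

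Mice differed across members as well. Clean air mouse 2 was the lowest of its group for 5 members and the highest for 0, 30 min mouse 1 was the highest of its group for 7, and 120 min mouse 3 was the highest for 6. The genes with the most similar pattern over the 9 libraries, among 12779 others, were Wdr1 (r = 0.980) and Vcl (0.976) for Fkbp5, both genes of the actin cytoskeleton, and Fbxo2 (0.981) and Atp7b (0.975) for Ddit4. For Cdkn1a they were AK042996 (named Slc7a1 in GENCODE M21, 0.966), an amino acid transporter gene, and ENSMUSG00000080509 (0.959), which has no symbol. Zdhhc21 (0.969) and Abi1 (0.925) were nearest to Tsc22d3, Ttbk1 (0.970) and ENSMUSG00000080295 (0.947) to Zbtb16, and Zbtb39 (0.935) and mKIAA1896 (Slc25a25 in GENCODE M21, 0.906) to Nfkbia. Nearest to Mt1 were Pigq (0.957) and Zfp41 (0.955), to Mt2 5830406J20Rik (0.950) and Zfand3 (0.929), to Pdk4 Gpr173 (0.932) and Gng5 (0.931), and to Hif3a ENSMUSG00000079663 (0.947) and 1700081L11Rik (0.942). With 9 libraries and this many genes, a high r with some gene is found for every member, and no shared control is read from it.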

How the data were processed

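RNA of 9 olfactory bulb libraries, 3 mice in each of 3 groups, was sequenced and deposited by the authors as 1 table of RPKM values with 2 decimals. Bowtie and the mouse genome mm9 are named in the submitters' processing notes. The sources used here do not say which annotation was used, whether counting used strand or how reads with several matches were treated. Values were transformed to log2(RPKM + 0.5), so that fold changes of low genes are understated, and 12780 of 27497 identifiers, those whose mean RPKM over all 9 mice was 1 or more, were tested. A single linear model of the 3 groups was fitted with limma 3.58.1 in R 4.3.3 (lmFit and eBayes with a trend, two-sided, 6 residual degrees of freedom), and p-values were adjusted by Benjamini-Hochberg over all tested genes. A gene was called at an adjusted p under 0.05. The procedure was tested on simulated data.

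Depth was recovered from 1956 short RNAs, whose RPKM values are multiples of what 1 read is worth when their length is taken as 34 bases shorter than annotated. Among their nonzero values of few reads, 113 to 218 per library, 89.5% of the multiples were whole within 0.05. The depths and the 34 bases were chosen to make the multiples whole, so this share describes the fit and is no separate check of it. Depths ran from 7.15 to 29.9 megareads, so that 3 counts correspond to 0.420 to 0.100 RPKM for a gene of 1 kb. Such floors cover counting error only. Count models were not used, since the table holds RPKM and not counts.

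The mice of a group are separate animals with 1 library each. The p-values rest on the spread between them, in which differences between mice and between libraries, such as depth, cannot be told apart. Deviations of same-numbered mice from their group means correlated at 0.147 to 0.384 between clean air and 30 min. The values were 0.0897 to 0.3915 between clean air and 120 min and 0.081 to 0.4442 between 30 min and 120 min, each lowest for mouse 3. Mice of different numbers correlated at -0.3801 to 0.0865. The main fit did not pair mice, and the numbers of the sample titles entered only an alternative fit, as a replicate block. This likeness of same-numbered mice is a hint from the data and not from the design. The library names number mice 2 and 3 of the clean air and 30 min groups differently, and the labels state no shared litter or day. The libraries of all mice numbered 1 are among the shallow ones. Members and gene lists were chosen with earlier results of these data known. Named are all members, genes of the lists of receptors and of other glucocorticoid-induced genes, and from the lists of p53 targets, metal handling, hypoxia, NF-kB, integrated stress response, mTOR and fasting genes and partners of the members the 2 most abundant tested genes and any called one. For each member the 2 genes with the highest r are named. Plk2, Bbc3 and Gadd45a of the p53 list were named outside this rule, after their values were seen. Promoters and their coordinates are from RefSeq on GRCm38.p6, and none of these coordinates was joined to the mm9 values. Exon overlaps and transcripts are from GENCODE M21.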

Additional observations from a re-analysis of the deposited data

Results flagged for a closer look

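Dusp1 and Btg2, both higher at 30 min than in clean air, differed between the odor time points by the test of 120 min minus 30 min itself. The log2 difference was -1.65 for Dusp1 (limma adjusted p = 0.00524, lower in 3 of 3 mice than in every 30 min mouse) and -2.63 for Btg2 (adjusted p = 6.25e-05, likewise). No member of the 10 genes had such a difference after adjustment.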

How the results depend on the processing

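Of 564 log2 differences of the members over 19 alternatives, 543 kept their direction and their side of the threshold, and 21, in 11 of 30 results, turned their sign. No member was called under any of them, and the lowest adjusted p was 0.0790 (Cdkn1a, 120 min minus clean air, replicate block). With the mouse number as a replicate block 22, 11 and 10 genes were called in the comparisons of 30 min with clean air, 120 min with clean air and 120 min with 30 min, against 18, 11 and 10 without it, and no member was called with it. At an unadjusted p under 0.05 the block raised the counts by over 1.5 times, from 756, 1223 and 430 genes to 1396, 1910 and 854, and those of members from 2, 4 and 3 to 2, 4 and 4, the addition being Nfkbia, lower at 120 min than at 30 min. By deviations 9 of 9 mice correlated best with their own number. For 120 min mouse 3 this was narrow, at 0.0897 with clean air mouse 3 against 0.0865 with clean air mouse 1. Deviations within a group sum to 0, so these 9 results do not stand apart from each other.

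For 120 min minus clean air, 7 genes were called with a mean of at least 5 RPKM, 2 in a fit of only the 2 groups compared and 5 with log2 depth as a covariate, an alternative chosen after the data were seen. Leaving out each mouse gave 0 to 11 called genes: 0 without clean air mouse 2 (1092 at an unadjusted p under 0.05) or 120 min mouse 3 (855), 3 without 120 min mouse 1 or 2, and 6 without clean air mouse 1.

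Signs turned when 1 mouse was left out. For 30 min minus clean air the lowest and highest log2 differences were -0.0005 and 0.40 for Fkbp5, -0.36 and 0.24 for Zbtb16, -0.20 and 0.69 for Mt1, -0.45 and 0.35 for Mt2, -0.44 and 0.0099 for Ddit4, -0.52 and 0.13 for Hif3a, -0.10 and 0.10 for Pdk4, and -0.063 and 0.32 for Mt3. For 120 min minus clean air they were -0.17 and 0.56 for Mt2, -0.14 and 0.58 for Hif3a, -0.019 and 0.35 for Nfkbia, and -0.039 and 0.69 for Mt3. For 120 min minus 30 min they were -0.18 and 0.56 for Mt2. With log2 depth as a covariate the 120 min minus clean air values were -0.18 for Mt2 and -0.12 for Mt3. The filter at a mean of 5 RPKM left no value for Hif3a and Pdk4. The cause of these turns was not tested.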
